A study of Bos taurus with 28 samples.

Results

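The transcripts described here are those of 3 fibrillar collagen genes, COL1A1 (ENSBTAG00000013103), COL1A2 (ENSBTAG00000013472) and COL3A1 (ENSBTAG00000021466), taken by identifier from the 24616 gene rows of the deposited count files. All 3 passed the filter on low counts, which kept 11288 genes for testing. The names of the 3 genes come from the choice of members, as the files hold identifiers only. The 12 steers were a cross of 2 breeds (Aberdeen Angus x Holstein Friesian), and RNA of their muscle was sequenced as poly(A)-selected paired-end libraries. The feeding trial held 24 steers, with 12 on each diet, and 6 steers of each diet are analysed here. Control steers were given concentrates without limit and 7 kg of grass silage per day for 99 days, and restricted steers were given silage without limit and 0.5 kg of concentrate per day. Both diets then changed to one mixed ration of 80% silage and 20% concentrate. Biopsies were taken at day 99 and at day 131, which was 32 days into the shared ration, so each of the 4 groups (control and restricted, day 99 and day 131) held 6 samples and the same steers appear at both days. The study asked how muscle expression differs at the end of restriction and during the accelerated gain that follows, known as compensatory growth.

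Fibrillar collagens are the rope-like proteins of connective tissue. COL1A1 and COL1A2 encode the chains that twist together into type I collagen, the main load-bearing collagen of the sheaths around muscle fibres and bundles. COL3A1 encodes the single kind of chain that makes up type III collagen, which forms finer fibrils together with type I and is abundant in growing and remodelling tissue. In muscle these transcripts come mainly from fibroblasts and related connective tissue cells rather than from the fibres, and the intramuscular collagen they encode bears on the toughness of beef.

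Sample totals ran from 3342314 to 24376288 counts, and TMM factors (edgeR's scaling factors for library composition) from 0.786 to 1.69. The 3 genes had between 724 and 7787 counts each in every sample, so that counting error was at most 3.72% of a value (Poisson). Together they took 0.0542% to 0.244% of a sample's counts. Technical libraries of 1 biopsy, which were summed, differed by at most 1.10-fold in CPM of any of the 3 genes (the 3 libraries of restricted steer 2 at day 99, COL3A1). Levels are given as CPM, counts scaled to a common library total after TMM. CPM does not correct for transcript length, so levels are compared between samples for 1 gene and not between genes. Marker genes of muscle fibres and of other cell types were not analysed here, because none of the identifiers could be paired with a symbol. The tissue label was therefore not checked against markers.

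COL1A1 had its highest mean in the restricted group of day 131 and its lowest in the restricted group of day 99. In the control group of day 99 it ran from 246 to 1449.6 CPM with a median of 449, and its mean was 586 ± 441 CPM (SD, n = 6). The restricted group of day 99 ran from 192 to 677 CPM with a median of 365 (mean 394 ± 185, SD, n = 6). At day 131 the control steers ran from 334 to 748 CPM with a median of 535 (mean 532 ± 184, SD, n = 6), and the restricted steers from 424 to 909 CPM with a median of 601 (mean 652 ± 217, SD, n = 6). By means the order was restricted day 131, control day 99, control day 131 and restricted day 99. Each group's range overlapped that of its neighbours in this order, and the gaps between neighbouring means were smaller than the SD of either group.

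COL1A2 ran from 215 to 603 CPM in the control group of day 99, with a median of 269 (mean 317 ± 145, SD, n = 6). In the restricted group of day 99 it ran from 142 to 243 CPM, with a median of 166 (mean 178 ± 40.7, SD, n = 6), and 5 of these 6 samples lay below every control sample of that day. The exception was restricted steer 4 at 243 CPM. The share of all genes with as many samples below every control sample was not counted. At day 131 the control steers ran from 147 to 301 CPM with a median of 238 (mean 230.3 ± 50.7, SD, n = 6), and the restricted steers from 191 to 376 CPM with a median of 228 (mean 246 ± 70.8, SD, n = 6). The order by means was control day 99, restricted day 131, control day 131 and restricted day 99. The means of the 2 middle groups, which were the day 131 groups, lay closer together than the SD of either, and restricted day 99 lay below both by about their SD.

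COL3A1 followed the same order of group means as COL1A2. It ran from 251 to 666 CPM in the control group of day 99 with a median of 369.6 (mean 402 ± 144, SD, n = 6), and from 152 to 389 CPM in the restricted group of day 99 with a median of 239 (mean 251 ± 88.8, SD, n = 6). There 3 of 6 restricted samples lay below every control sample, and here too the share of all genes with as many was not counted. At day 131 the control steers ran from 194 to 469.99 CPM with a median of 275 (mean 295 ± 106, SD, n = 6), and the restricted steers from 239 to 463 CPM with a median of 297 (mean 333 ± 98.6, SD, n = 6). Neighbouring groups in this order overlapped, and their means differed by less than the larger SD of the pair.

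**Figure D1:**
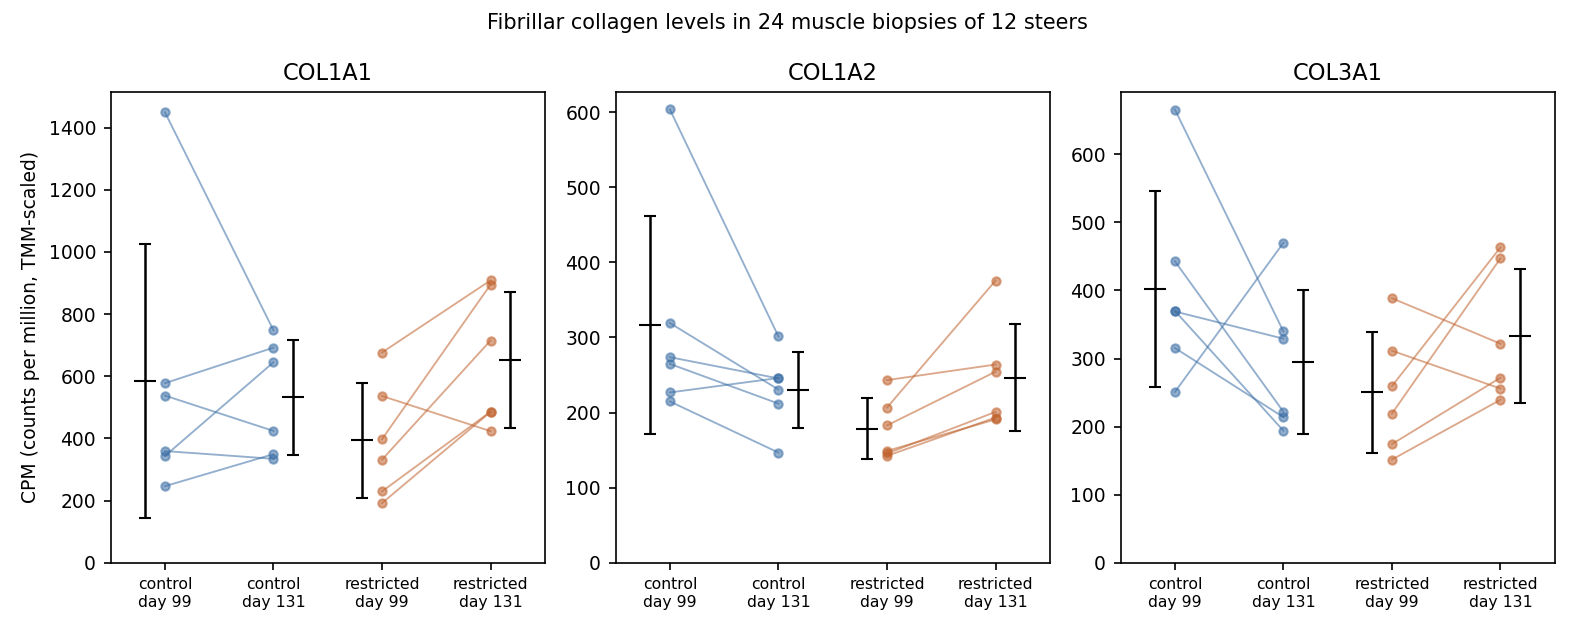
CPM of COL1A1, COL1A2 and COL3A1 (vertical axes, starting at 0) in the 4 groups, where each point is a sample, each line joins the 2 biopsies of a steer, and black marks beside the points give the group mean and SD (n = 6). Control steer 6 at day 99 is the highest point in every panel (1449.6, 603 and 666 CPM), and the restricted day 99 group has the lowest mean in every panel.

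Restricted and control steers were first compared at day 99, the end of restriction. All 3 collagen transcripts had lower means in restricted steers, and none passed the threshold of an adjusted p under 0.05. COL1A2 had a log2 fold change of -0.83 ± 0.25 (SE), which is 1.78-fold lower in restricted steers, with a 95% interval of -1.35 to -0.31 (edgeR unadjusted p = 0.00262, adjusted p = 0.58). COL3A1 had a log2 fold change of -0.68 ± 0.28 (SE), 1.60-fold lower, with an interval of -1.25 to -0.12 (edgeR unadjusted p = 0.02, adjusted p = 0.967). COL1A1 had a log2 fold change of -0.57 ± 0.36 (SE), with an interval of -1.31 to 0.17 (edgeR unadjusted p = 0.126, adjusted p = 0.9998). In whole tissue, fewer collagen-producing cells and less collagen RNA per cell cannot be told apart.

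Thus 0 of the 3 genes were called at day 99 by edgeR, beside 0.00% of all genes tested, and DESeq2 and limma voom also called 0 of the 3. Before adjustment, 2 of 3 had a p under 0.05, beside 4.31% of all genes, or 2.84% counting only genes lower in restricted steers. The genes were chosen with earlier results of these data known, so the count is a description. The median log2 fold change over all genes was -0.021, and 2.69% of genes had a lower value than COL1A2, 4.84% a lower value than COL3A1 and 7.57% a lower value than COL1A1.

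The sample of control steer 6 set much of the size of the day 99 difference. Its sample had the smallest total of the 24, 3342314 counts, a TMM factor of 0.897, and 4346, 1809 and 1996 counts of COL1A1, COL1A2 and COL3A1. Without it the control mean of COL1A1 was 413 ± 140 CPM (SD, n = 5) and that of COL1A2 was 259.8 ± 41.4 CPM. Without it the log2 fold changes between diets were -0.071 for COL1A1 (edgeR adjusted p = 0.9997, against 0.794 to 0.99996 over the alternatives), -0.54 for COL1A2 (adjusted p = 0.9997, against 0.255 to 0.9998) and -0.47 for COL3A1 (adjusted p = 0.9997, against 0.597 to 0.99996). All 3 stayed below 0. The unadjusted p of COL3A1 was then 0.0957 and that of COL1A2 was 0.024.

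The direction at day 99 also held within each of 4 runs. The runs are those dated in the file names, which do not say what step a run is, and each held only 1 or 2 samples per group. The difference in mean log2 CPM of COL1A2, restricted minus control, was -0.88, -0.61, -0.42 and -1.68 in runs 1 to 4. For COL3A1 it was -1.09, -0.38, -0.36 and -1.46. For COL1A1 it was -1.59, -0.27, -0.085 and -1.27, and run 4 holds control steer 6.

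At day 131, with both diets on the same ration, the means of the 3 transcripts were slightly higher in restricted than in control steers, by less than the SD of either group. The log2 fold change was 0.29 ± 0.36 (SE) for COL1A1, with a 95% interval of -0.45 to 1.03. It was 0.098 ± 0.25 (SE) for COL1A2, with an interval of -0.42 to 0.61, and 0.18 ± 0.28 (SE) for COL3A1, with an interval of -0.39 to 0.74. The edgeR adjusted p was 0.9998 for each. When 1 sample was left out, the value of COL1A1 ran from 0.14 (without restricted steer 4) to 0.39 (without restricted steer 6), and that of COL3A1 from 0.040 (without restricted steer 1) to 0.33 (without control steer 5). Of the 3 genes, 0 passed by edgeR, DESeq2 or limma voom, beside 0.00% of all genes by edgeR, and 0 of 3 had an unadjusted p under 0.05, beside 1.74% of all genes. The interval of COL1A2 leaves room for differences of up to 1.53-fold in one direction and, at its lower end, a ratio of 0.750. Within runs the sign was mixed for COL1A1 (-0.13, -0.21 and 0.95 in runs 2, 3 and 4) and COL1A2 (0.057, -0.24 and 0.50), and above 0 for COL3A1 (0.68, 0.11 and 0.092). Run 1 held no restricted sample of this day.

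The change from day 99 to day 131 in restricted steers covers the move from restriction to the shared ration. COL1A2 was higher at day 131 in 6 of 6 restricted steers, COL1A1 in 5 of 6 and COL3A1 in 4 of 6, and 3 of 6 steers were higher in all 3 genes. The share of all genes that were higher in as many steers was not counted. The biopsies of each steer lay in different runs, so these changes also compare runs. The ratio of day 131 to day 99 CPM of COL1A1 was 2.25 in steer 1, 2.53 in steer 2, 2.16 in steer 3, 1.34 in steer 4, 2.12 in steer 5 and 0.789 in steer 6. For COL1A2 the ratios lay between 1.09 (steer 4) and 1.82 (steer 1). For COL3A1 they lay between 0.822 (steer 5) and 2.04 (steer 1), and steers 4 and 5 were below 1. Restricted steer 6 was thus lower in COL1A1 while higher in COL1A2 and COL3A1, and steers 4 and 5 were lower in COL3A1 while higher in the type I chains.

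None of these changes passed the test over all genes. The log2 fold change was 0.73 ± 0.36 (SE) for COL1A1 (1.66-fold, 95% interval -0.016 to 1.47, edgeR unadjusted p = 0.0549, adjusted p = 0.274). It was 0.47 ± 0.25 (SE) for COL1A2 (1.38-fold, interval -0.045 to 0.98, edgeR unadjusted p = 0.0724, adjusted p = 0.297) and 0.41 ± 0.28 (SE) for COL3A1 (1.33-fold, interval -0.15 to 0.98, edgeR unadjusted p = 0.148, adjusted p = 0.383). Thus 0 of 3 were called by edgeR, DESeq2 or limma voom, beside 0.381% of all genes by edgeR. Before adjustment, 0 of 3 had a p under 0.05, beside 18.7% of all genes. The median log2 fold change over all genes was -0.075. A lower value was found in 91.9% of genes for COL1A1, 82.3% for COL1A2 and 79.2% for COL3A1. Within runs 2, 3 and 4 the difference in mean log2 CPM was 0.96, 0.90 and 0.13 for COL1A1, 0.36, 0.33 and 0.52 for COL1A2, and 0.44, 0.097 and 0.48 for COL3A1. The biopsies of each steer lay in different runs, so these differences compare different steers. Changes within a steer compare different runs, and no value holds both steer and run fixed. With the steer as a block, which uses the pairing of the biopsies, 2063 of the 11288 genes tested had an edgeR unadjusted p under 0.05. In the same fit the edgeR unadjusted p was 0.00893 for COL1A1, 0.0488 for COL1A2 and 0.13 for COL3A1. The adjusted p was then 0.173, 0.272 and 0.376, and over all alternatives it ran from 0.148 to 0.562, 0.213 to 0.57 and 0.244 to 0.578.

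**Figure D2:**
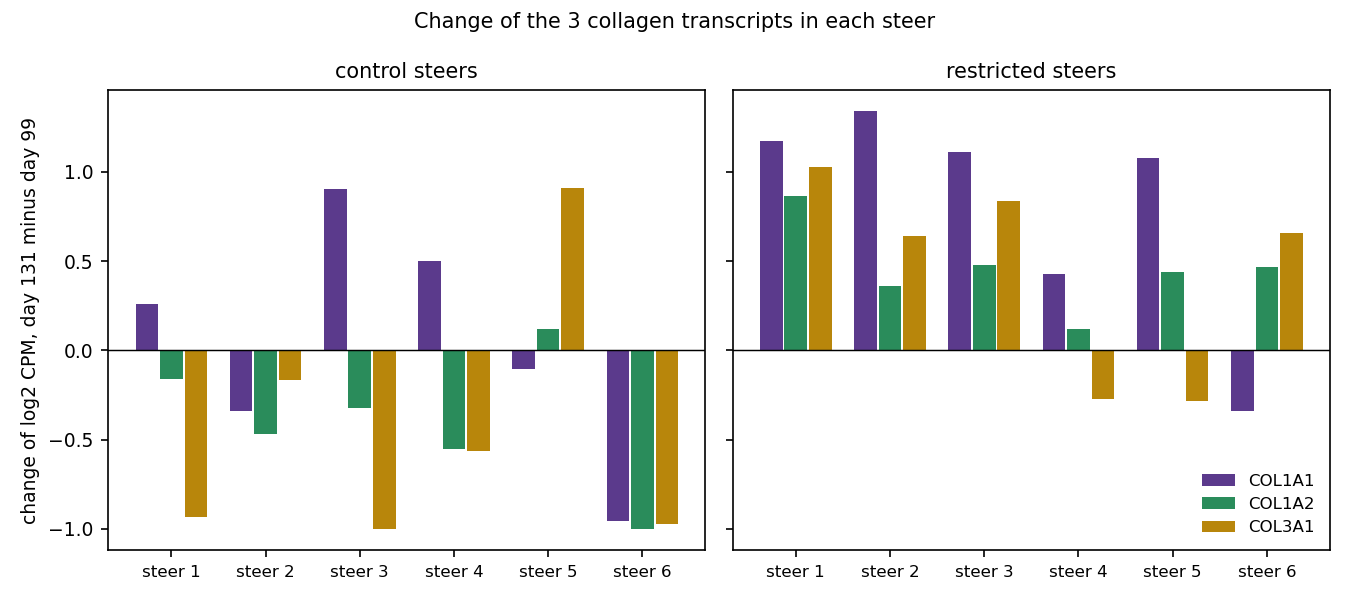
Change of log2 CPM from day 99 to day 131 (vertical axis, bars from 0) of COL1A1, COL1A2 and COL3A1 in each of the 6 control steers (left) and 6 restricted steers (right). COL1A2 bars point up in 6 of 6 restricted steers and down in 5 of 6 control steers, and all 3 bars of control steer 6 point down. The biopsies of each steer lay in different runs.

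Control steers changed from a concentrate-rich diet to the shared ration over the same days. COL1A2 and COL3A1 were each lower at day 131 in 5 of 6 control steers, the exception being control steer 5 in both, and COL1A1 was lower in 3 of 6. Here too each steer's change also compares runs, and the share of all genes lower in as many steers was not counted. Control steer 6 was lower in all 3 genes, with day 131 to day 99 ratios of 0.516, 0.499 and 0.510. The log2 fold change was -0.46 ± 0.25 (SE) for COL1A2 (95% interval -0.97 to 0.053, edgeR unadjusted p = 0.0771, adjusted p = 0.722). It was -0.45 ± 0.28 (SE) for COL3A1 (interval -1.01 to 0.12, edgeR unadjusted p = 0.116, adjusted p = 0.722) and -0.14 ± 0.36 (SE) for COL1A1 (interval -0.88 to 0.60, edgeR unadjusted p = 0.706, adjusted p = 0.859). Of the 3 genes, 0 passed by edgeR, DESeq2 or limma voom, beside 0.00% of all genes by edgeR, and 0 of 3 had an unadjusted p under 0.05, beside 3.89% of all genes. The median log2 fold change over all genes was -0.10, so that of COL1A1 was near the median. A lower value was found in 47.3% of genes for COL1A1, 17.3% for COL1A2 and 18.3% for COL3A1.

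Here too the sample of control steer 6 at day 99 set the size of the values. Without it the log2 fold changes of control steers were 0.43 for COL1A1, -0.12 for COL1A2 and -0.20 for COL3A1, so that of COL1A1 turned. The log2 fold change of COL1A1 was also above 0 without control steer 5 at day 131 (0.0095), by limma voom (0.043) and with the steer as a block (0.047). Within runs 1 to 4 the difference was -0.45, 0.82, 1.03 and -2.08 for COL1A1, -0.25, -0.31, 0.15 and -1.67 for COL1A2, and -0.17, -0.62, -0.38 and -1.07 for COL3A1. In run 4 the only day 99 sample of control steers was that of steer 6. These differences compare different steers, as the biopsies of each steer lay in different runs.

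The diet by day interaction tests whether the change over time differed between the diets. It was positive for each gene, that is, the change in restricted steers lay above that in control steers. The log2 value was 0.93 ± 0.36 (SE) for COL1A2 (95% interval 0.20 to 1.66, edgeR unadjusted p = 0.014, adjusted p = 0.9998), 0.86 ± 0.39 (SE) for COL3A1 (interval 0.059 to 1.66, edgeR unadjusted p = 0.0362, adjusted p = 0.9998) and 0.87 ± 0.51 (SE) for COL1A1 (interval -0.18 to 1.91, edgeR unadjusted p = 0.102, adjusted p = 0.9998). By edgeR, DESeq2 and limma voom 0 of 3 were called, beside 0.00% of all genes by edgeR, and 2 of 3 had an unadjusted p under 0.05, beside 2.51% of all genes, or 1.82% counting only genes with a positive interaction. Without control steer 6 at day 99 the values were 0.61 for COL1A2, 0.63 for COL3A1 and 0.34 for COL1A1, with edgeR unadjusted p of 0.0604, 0.111 and 0.449, so that 0 of 3 were then under 0.05. These fits do not use the pairing of the biopsies. With the steer as a block, which does, the log2 values were 0.85 for COL1A2, 0.90 for COL3A1 and 0.76 for COL1A1. The edgeR unadjusted p was then 0.0116, 0.033 and 0.0665, and the adjusted p was 0.9997 for each. In that fit 317 of the 11288 genes tested had an edgeR unadjusted p under 0.05. The interaction uses all 4 groups, and so shares its samples with the other 4 comparisons. It adds no separate evidence to them.

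**Figure D3:**
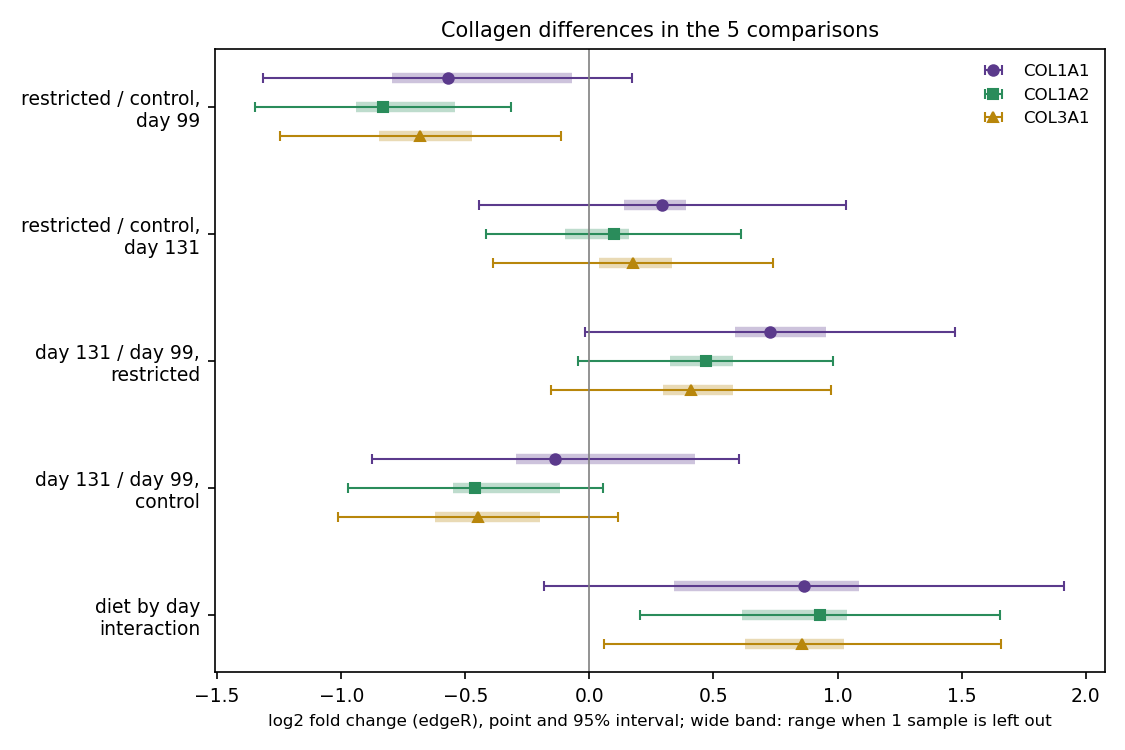
Log2 fold changes of the 3 genes in the 5 comparisons (horizontal axis), with points and thin bars for the edgeR estimate and its 95% interval and wide bands for the range of estimates when 1 sample is left out. At day 99 the intervals of COL1A2 (-1.35 to -0.31) and COL3A1 (-1.25 to -0.12) lie below 0 before adjustment over genes, and the band of COL1A1 reaches -0.071.

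The genes differed in how much they varied between steers of 1 group. The SD of log2 CPM within groups was 0.67 for COL1A1, 0.48 for COL3A1 and 0.40 for COL1A2, beside a median of 0.60 over all genes tested. Among the 200 genes nearest in mean CPM, 84.5% had a smaller SD than COL1A1, 42% a smaller SD than COL3A1 and 25% a smaller SD than COL1A2. The largest within-group range was that of COL1A1 in the control group of day 99, 5.88-fold between steers 4 and 6. The smallest was that of COL1A2 in the restricted group of day 99, 1.71-fold.

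COL1A1 and COL1A2, the chains of type I collagen, varied together among steers. As deviations from group means over 12 steers, they correlated at day 99 with Pearson r = 0.85 (permutation p = 0.00286, adjusted p = 0.0257 over 9 relations) and Spearman rho = 0.741 (permutation p = 0.0124, adjusted p = 0.0558), and r was 0.655 without the 2 farthest steers. At day 131 r was 0.718 (permutation p = 0.00955, adjusted p = 0.0291), rho was 0.664 (permutation p = 0.0285, adjusted p = 0.0855) and r without the 2 farthest was 0.669. By Spearman's rho neither day passed 0.05 after adjustment. Here and below, the farthest steers are those farthest from the median in COL1A1 where it is in the pair, and otherwise in COL1A2. For relations between days they are farthest at day 99.

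COL3A1, the type III chain, was set beside each type I chain in the same way. With COL1A2 its r was 0.742 at day 99 (permutation p = 0.0097, adjusted p = 0.0291; rho = 0.601, permutation p = 0.0496, adjusted p = 0.0993) and 0.646 at day 131 (permutation p = 0.0299, adjusted p = 0.0537; rho = 0.566, permutation p = 0.0662, adjusted p = 0.0993). The day 99 value was 0.352 without control steer 6 and restricted steer 4, the steers farthest in COL1A2. Leaving out extremes of COL1A2 narrows its range and can by itself lower r, so how far r rests on them was not settled. With COL1A1 its r was 0.522 at day 99 (permutation p = 0.0995, adjusted p = 0.128; rho = 0.329, permutation p = 0.319, adjusted p = 0.411) and 0.131 at day 131 (permutation p = 0.701, adjusted p = 0.789; rho = 0.126, permutation p = 0.721, adjusted p = 0.788), and 0.228 and 0.059 without the 2 farthest steers. Whether the correlations differ from each other was not tested, and each run held too few steers for a value within runs.

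Steers that were high in COL1A2 within their group at day 99 tended to be high again at day 131. Over 12 steers r was 0.705 (permutation p = 0.0176, adjusted p = 0.0397), rho was 0.734 (permutation p = 0.0111, adjusted p = 0.0558), and r was 0.778 without control steer 6 and restricted steer 4. For COL1A1 r was 0.587 (permutation p = 0.0579, adjusted p = 0.0869), rho was 0.601 (permutation p = 0.0557, adjusted p = 0.0993), and r was 0.397 without the 2 farthest steers. For COL3A1 r was 0.037 (permutation p = 0.911, adjusted p = 0.911) and rho was 0.091 (permutation p = 0.788, adjusted p = 0.788), with r = -0.12 without the 2 farthest. These relations between days were added after the levels had been seen.

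Ratios of counts within a sample need no library scaling. They are not corrected for transcript length, so each ratio is compared between samples and does not give the relative level of the transcripts. They are given without a test. At day 99 COL1A2 counts per COL1A1 count averaged 0.626 ± 0.173 in the control group and 0.516 ± 0.181 in the restricted group (SD, n = 6), and at day 131 they averaged 0.464 ± 0.152 and 0.388 ± 0.0618. COL3A1 counts per COL1A1 count averaged 0.842 ± 0.353, 0.742 ± 0.369, 0.645 ± 0.414 and 0.526 ± 0.0977 in the same order. COL3A1 counts per COL1A2 count averaged 1.31 ± 0.231, 1.41 ± 0.438, 1.29 ± 0.392 and 1.36 ± 0.243, with no order by day or diet beyond the SD. In the ratios to COL1A1 both day 131 means lay below both day 99 means, and the ranges of all groups overlapped.

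The ratio of COL3A1 to COL1A1 was set beside the TMM factor of each sample. Over the 24 samples it ran from 0.28 (control steer 1 at day 131) to 1.41 (control steer 5 at day 131), a 5.02-fold span. It was above 1 in 4 samples, a cut that does not mark equal levels, as transcript length is not corrected. The samples above 1 were the 3 with a TMM factor over 1.3 (control steer 5 at day 131 with 1.41, restricted steer 5 at day 99 with 1.36 and control steer 3 at day 99 with 1.29) and control steer 4 at day 99 with 1.28, whose TMM factor was 1.12. The 4 lowest ratios, 0.28 in control steer 1 at day 131, 0.282 in restricted steer 6 at day 99, 0.344 in control steer 3 at day 131 and 0.354 in restricted steer 4 at day 131, came from samples with TMM factors of 0.824, 0.809, 0.865 and 0.845. Other samples went against this order. Control steer 5 at day 99 had a factor of 1.13 and a ratio of 0.698, and restricted steer 2 at day 131 had the lowest factor of all, 0.786, and a ratio of 0.56. Between the 2 biopsies of a steer, the ratio and the factor changed in the same direction in 10 of 12 steers and in opposite directions in control steers 2 and 6. In control steer 3, whose factor went from 1.69 to 0.865, the ratio of day 131 to day 99 CPM was 1.88 for COL1A1 and 0.501 for COL3A1. The part of library composition in the ratios was not tested. Without the 3 samples with high factors, the day 99 diet differences were -0.55, -0.79 and -0.70 for COL1A1, COL1A2 and COL3A1 on the log2 scale.

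**Figure D4:**
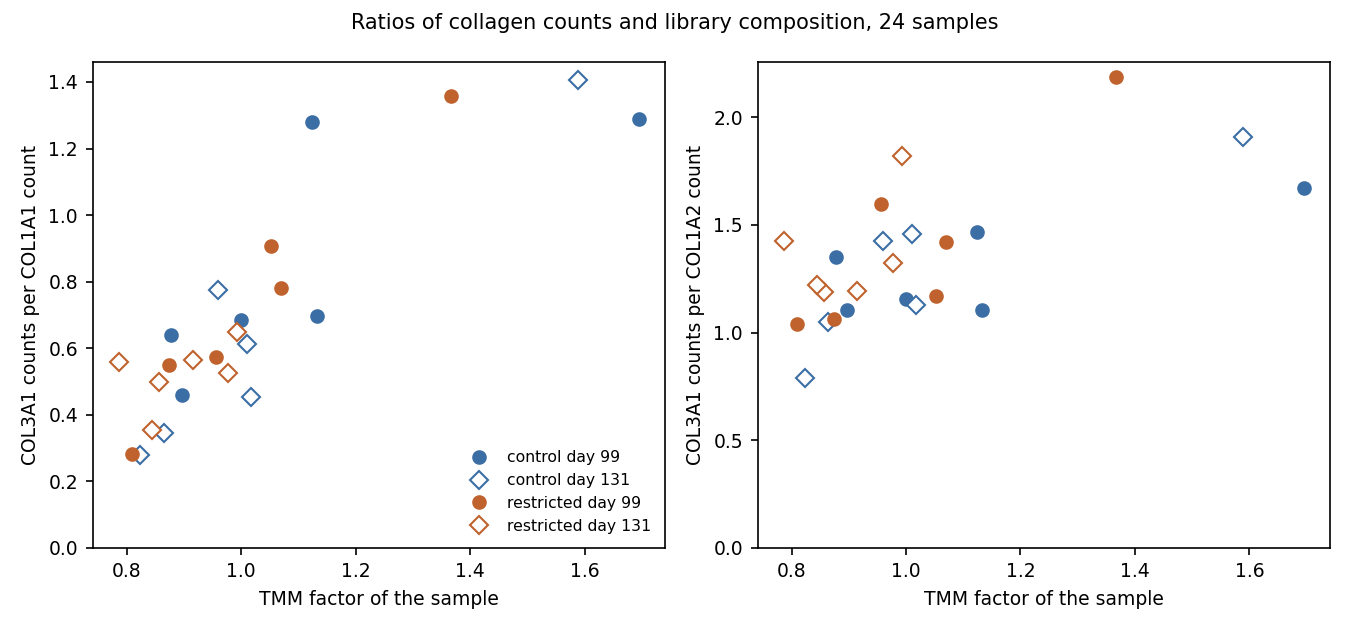
COL3A1 counts per COL1A1 count (left) and per COL1A2 count (right) against the TMM factor of each of the 24 samples, with colour for diet and symbol shape for day. On the left the 4 samples above 1 have TMM factors of 1.12 or more, and the 4 lowest have factors of 0.865 or less.

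Genes whose pattern was most like that of the 3 collagens were ranked by the mean Pearson r of log2 CPM with the 3 genes over the 24 samples, as a description. The samples share steers, group differences and scaling, so these values carry no test. The collagens themselves correlated at 0.742 (COL1A1 with COL1A2), 0.425 (COL1A1 with COL3A1) and 0.78 (COL1A2 with COL3A1) on this scale. Of the 11285 other genes tested, 2 had a mean r of at least 0.7. ENSBTAG00000030190 had a mean r of 0.725 (0.593 with COL1A1, 0.847 with COL1A2 and 0.735 with COL3A1) and a mean level of 243 CPM. Its log2 fold change between diets at day 99 was -0.54 ± 0.23 (SE, edgeR adjusted p = 0.9998). ENSBTAG00000006214 had a mean r of 0.715 (0.794, 0.806 and 0.546 in the same order) and a mean level of 33.8 CPM. Its log2 fold change between diets at day 99 was -0.96 ± 0.25 (SE, edgeR adjusted p = 0.313), and in restricted steers from day 99 to day 131 it was 0.78 ± 0.25 (SE, edgeR adjusted p = 0.156). Both genes were picked for likeness over these same samples, group differences included. Fold changes like those of the collagens were thus favoured by the choice and are no separate evidence. The files do not pair these identifiers with names.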

How the data were processed

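RNA-seq counts of 24 muscle biopsies from 12 steers were analysed. Whole-number counts per Ensembl gene were deposited by the authors, not normalized. CASAVA 1.4, Bowtie, SAMtools, HTSeq and build UMD3.1 are named in the submitters' processing notes, and no strand setting was found in the sources. Technical libraries of 1 biopsy were summed. edgeR 4.0.16 (R 4.3.3) was run with TMM scaling, a filterByExpr minimum count of 10 and 1 quasi-likelihood fit over the 4 groups, and p-values were adjusted by Benjamini-Hochberg over 11288 genes. Log2 CPM used a prior count of 2. Fold changes are restricted over control or day 131 over day 99, and intervals are 95%. Correlations used 100000 permutations of steers within diets (two-sided). The scripts were tested on simulated data. The members and lists were chosen with earlier results of these data known.

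Alternatives were DESeq2 1.42.0, limma 3.58.1 (voom), other scaling, filters and sample sets, the run as a covariate, the first technical library only and the steer as a block. The labels number the animals, so the 2 biopsies of a steer are paired. They lay in different runs for every steer, so no value of change over days holds both steer and run fixed. Deviations from group means of the 2 biopsies correlated over genes with a median of 0.158 over 12 steers (-0.61 to 0.52, over 0.1 in 8). Totals were 3342314 to 24376288 counts, and counting errors cover counting only. Of the identifiers, 0 matched the reference table (assembly ARS-UCD2.0), so 17 lists fixed by symbol were not run, no coordinates or sequences are given, and besides the members at most 2 identifiers were named, those with the highest mean correlation with the 3 genes.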

Additional observations from a re-analysis of the deposited data

Results flagged for a closer look

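In groups of 6 samples, the CPM of each gene and the ratios of their counts were searched for a sample that stands apart, that is, whose gap to the nearest sample exceeds 0.625 of the group's range (Dixon's criterion). For normally distributed values, chance alone picks out about 5% of groups. The values were searched without a log scale, and the 24 groups of values share samples and genes, so this share may not hold here. Of the 24, 3 were found, and whether that exceeds chance was not tested. COL1A1 in control steer 6 at day 99 was 1449.6 CPM, where the next highest control sample of that day was at 578 CPM. COL1A2 in the same sample was 603 CPM, where the next was at 319 CPM. COL3A1 counts per COL1A2 count were 1.82 in restricted steer 3 at day 131, where the next highest restricted sample of that day was at 1.42.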

How the results depend on the processing

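Of 357 alternative values of the 15 results of the 3 genes, 350 kept their direction and stayed short of an adjusted p of 0.05, and 7 changed sign without passing it. The change of COL1A1 in control steers (main log2 value -0.14) was 0.043 by limma voom, 0.047 with the steer as a replicate block and 0.043 by limma voom with the steer as a random block, and it ran from -0.29 to 0.43 when 1 sample was left out. The diet difference of COL1A2 at day 131 (main 0.098) ran from -0.098 to 0.16 when 1 sample was left out, and was below 0 without control steer 4 or restricted steer 1 of that day. The cause of these changes was not tested. The block changed no call of the 3 genes.

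Counts of genes called over the whole table moved more. Between diets at day 99 (main 0) DESeq2 called 20 genes, RLE scaling 2, limma voom 1 with or without the steer as a random block, and leaving out 1 sample 0 to 5 (5 without control steer 4). Between diets at day 131 (main 0) DESeq2 called 3. From day 99 to day 131 in restricted steers (main 43) DESeq2 called 239, a fit of those 2 groups alone 92, limma voom 65, limma voom with the steer as a random block 86, a fit without the 3 samples with high TMM factors 66, and leaving out 1 sample 21 to 153. Without steer 6 of day 99 it was 153, and without steers 2, 3 or 5 of day 99 or steer 4 of day 131 it was 22, 24, 21 and 25. For the interaction (main 0) DESeq2 called 2, and leaving out 1 sample 0 to 1. The lowest count of a member was 724, and what limits the counts over all genes was not tested.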
